A study of Mus musculus with 12 samples.

Results

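The genes of the Notch pathway were followed in mouse regulatory T cells (Treg) that kept or had lost Ikaros, the zinc finger factor encoded by Ikzf1. The 9 members were the rows of the expression table named Notch1, Notch2, Notch3, Rbpj, Maml1, Maml2, Maml3, Hes1 and Dtx1, of 36222 genes in all, and each name had a single gene identifier. Messenger RNA was measured in 12 libraries, 3 in each of 4 groups. All animals carried Foxp3-YFP-Cre, a Cre with a yellow fluorescent reporter that is driven from the Foxp3 locus and so acts in Treg. WT animals carried this Cre alone, and in Ikzf1 conditional knockout animals (cKO) it deleted a homozygous floxed Ikzf1 (Ikzf1 fl/fl) on the B6 background. YFP+ Treg were sorted from spleen CD4+ cells of individual mice, and RNA was taken either without stimulation (ex vivo) or after 4 h on plate-bound anti-CD3 and anti-CD28 at 1 µg/ml each (stimulated). Animals of the ex vivo comparison were matched for age, at 6 to 8 weeks, and for the stimulated libraries no separate age is given in the sources used here.

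Notch receptors are cell surface proteins that are cut when they bind a Delta or Jagged ligand on a neighbouring cell. The freed intracellular part enters the nucleus, where it joins RBPJ, the DNA-binding protein of the pathway, and a Mastermind-like coactivator (MAML1, MAML2 or MAML3). Hes1 is a classical target of that complex, and Dtx1 encodes deltex 1, a ubiquitin ligase that is both a modulator of Notch and a target gene in lymphocytes. In T cells the pathway is best known for commitment to the T lineage in the thymus, and RBPJ can also act as a repressor when no Notch is in the nucleus. Ikaros recognises a core of GGGAA in DNA, which also lies within TGGGAA, the core recognised by RBPJ, and whether the loss of Ikaros changes these transcripts is the question of the genotype comparisons.

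The promoters of the 3 members with a called genotype difference are shown so that this shared core can be looked up in them, and it is not particular to them, since it also lies in the windows of Maml1 and Maml2, which had no called genotype difference. The RefSeq promoter table (GRCm38.p6) held 10 windows of 250 bases before a start for 8 of the 9 members, and Hes1 had no entry. The windows printed were placed by exact match on NCBIM37, the assembly also called mm9. Capitals mark GGGAA, or TGGGAA where that longer core is present, on either strand. The Notch2 window is chr3:97817211-97817460 on the plus strand, the Maml3 window is chr3:51908929-51909178 on the minus strand, and for Rbpj the stretch chr5:53981335-53981453 on the plus strand is shown, 119 bases that end where an annotated exon of the gene begins.
Notch2: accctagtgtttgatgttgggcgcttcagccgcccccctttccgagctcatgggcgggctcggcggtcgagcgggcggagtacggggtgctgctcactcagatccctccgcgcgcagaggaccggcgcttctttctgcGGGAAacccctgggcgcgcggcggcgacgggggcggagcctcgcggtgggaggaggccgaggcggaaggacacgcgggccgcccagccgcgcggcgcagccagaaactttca
Maml3: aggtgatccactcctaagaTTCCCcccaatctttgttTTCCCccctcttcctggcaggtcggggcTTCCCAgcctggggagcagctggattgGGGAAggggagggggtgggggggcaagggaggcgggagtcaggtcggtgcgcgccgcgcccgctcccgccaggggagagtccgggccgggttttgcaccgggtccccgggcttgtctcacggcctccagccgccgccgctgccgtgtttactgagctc
Rbpj: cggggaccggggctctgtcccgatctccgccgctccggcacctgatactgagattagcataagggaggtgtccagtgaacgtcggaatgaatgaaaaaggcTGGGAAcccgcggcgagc

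The Notch2 window held 1 GGGAA and no TGGGAA, the Maml3 window held 4 GGGAA of which 1 was TGGGAA, and the full Rbpj window held 3 GGGAA of which 2 were TGGGAA. A second Rbpj window, which overlaps the first, held 1 TGGGAA, and this is a site of the first window counted again. Maml1 held 2 GGGAA and 1 of the Maml2 windows held 1 TGGGAA, while those of Notch1, Notch3 and Dtx1 held neither. Of the 10 member windows, both Rbpj windows included, 6 held GGGAA and 4 held TGGGAA, while among 32851 mouse promoter windows of the same length 56.2% held GGGAA and 21.6% held TGGGAA. The letters are a description of these windows and not of binding.

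Libraries held between 8208659 and 20247649 reads on genes, with the stimulated cKO group the shallowest. A single gene model, Gm10800, took between 17.7% and 55.9% of the TPM of a library (transcript abundance per gene length, scaled by the authors to a fixed total), most in stimulated cKO. Levels are therefore given as scaled TPM, which is the deposited TPM divided by a factor that lines up the bulk of genes between libraries. Ikzf1 itself spanned 104 to 114 scaled TPM in WT and 33.03 to 42.1 in cKO ex vivo, and 66.7 to 71.1 in WT and 23.3 to 30.1 in cKO after stimulation. WT ex vivo 3 stood apart by its Xist transcript (179 TPM, at most 1.36 in the other libraries), so ex vivo genotype results of the members tested are also given without it. The 7 Treg markers summed to 1909 to 2162 scaled TPM in WT and 1989 to 2213 in cKO ex vivo. Their sum was lower after stimulation, at 1233 to 1353 in WT and 1245 to 1728 in cKO, but not every marker fell. Mean Ctla4 went from 750 to 206 in WT and from 664 to 256 in cKO, and Cd4 and Cd3e also fell in both. Tnfrsf18 rose, from 96.1 to 166 in WT and from 139 to 211 in cKO. By their means Foxp3 and Il2ra were lower in stimulated WT and higher in stimulated cKO, and Ikzf2 was the reverse. In limma the changes of Foxp3 in WT (adjusted p = 0.0145), Il2ra in cKO (0.00583) and Ikzf2 in cKO (0.0131) were called. Those of Foxp3 in cKO (0.0734), Il2ra in WT (0.476) and Ikzf2 in WT (0.647) were not. Foxp3, which defines Treg and whose locus drives the Cre, was higher in stimulated cKO than in stimulated WT (log2 0.96, limma adjusted p = 0.00847), and its part in the genotype differences of the members was not tested. In bulk RNA, fewer cells that carry a transcript and less of it per cell cannot be told apart.

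Of the 9 members, 7 reached the level at which genes were tested, a mean of at least 5 TPM in some group. Ex vivo in WT, Dtx1 was the most abundant at 81.7 ± 9.82 scaled TPM (SD, n = 3). Notch2 followed at 43.8 ± 7.24 and Notch1 at 42.5 ± 5.72, whose libraries overlapped, and then Maml1 at 29.4 ± 4.11, Maml2 at 16.5 ± 1.07 and Rbpj at 11.5 ± 0.738. Maml3 at 2.35 ± 0.489, Notch3 at 2.06 ± 0.409 and Hes1 at 1.95 ± 0.79 were close to each other and low. To place such values, 1555 olfactory and vomeronasal receptor genes, which T cells do not use, had a median of 0.742 scaled TPM in WT ex vivo and a 90th percentile of 1.44, and Maml3, Notch3 and Hes1 lay above 99.1%, 98.5% and 97.9% of them. In WT this median was 0.883 after stimulation, and in cKO it was 0.761 before and 1.19 after, so the lowest values had a floor that moved with the group, and its part in the changes of the low members was not tested.

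**Figure D1:**
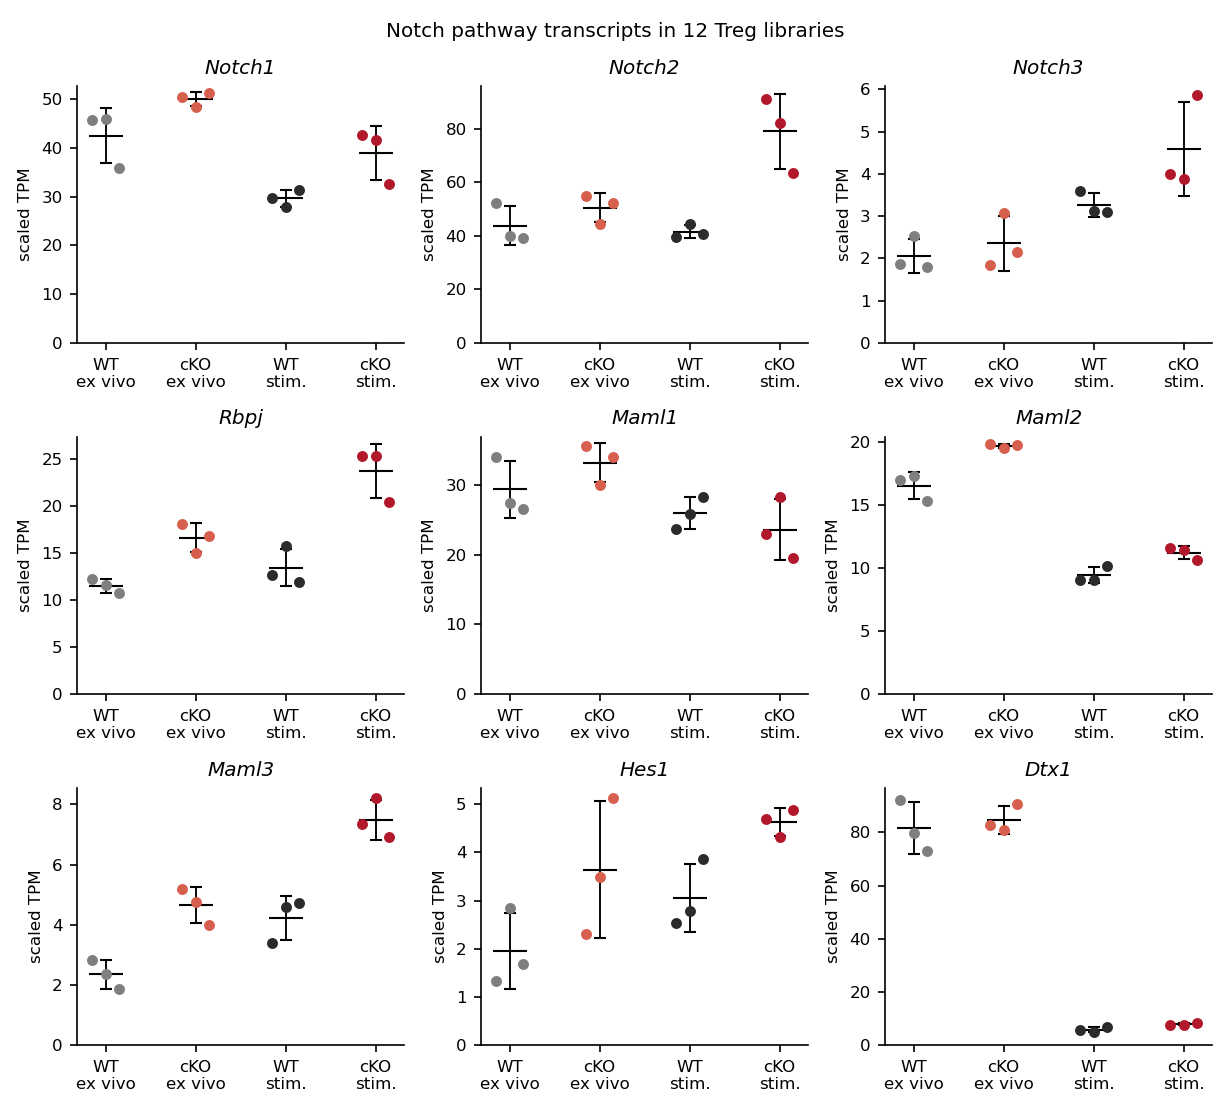
Scaled TPM (vertical axes, from 0) of each of the 9 members in the 12 libraries, by group; points are libraries, and the bars show the mean and SD of 3 libraries. Dtx1 drops from 73.1 or above in every ex vivo library to 8.19 or below in every stimulated library, and Notch2 stands at 63.6 or above only in stimulated cKO.

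Without stimulation, Rbpj and Maml3, 2 nuclear partners of Notch, were higher in cKO Treg, and no receptor was called. Of the 7 members tested, 2 were called higher and none lower at an adjusted p under 0.05 in limma, a linear model fitted to log2(scaled TPM + 1) of all 13318 genes tested. Among all those genes 5.29% were called, 3.62% of them higher. The median log2 difference of the 7 members was 0.24, beside -0.01 over all genes tested, and all 7 estimates lay above 0. Without WT ex vivo 3 the estimate for Dtx1 was -0.020.

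Rbpj (ENSMUSG00000039191, chromosome 5, 53947018 to 54048684 on mm9, plus strand) was measured at 12.2, 11.6 and 10.7 scaled TPM in WT ex vivo, against 18.1, 15.01 and 16.7 in cKO. Every cKO library lay above every WT library. The log2 difference was 0.49 (SE 0.12, limma adjusted p = 0.040), a 1.41-fold higher level. Its call was lost when any 1 of the 6 ex vivo libraries, WT stimulated 1 or cKO stimulated 2 was left out, with the highest adjusted p of 0.148 without cKO ex vivo 1 and 0.134 without WT ex vivo 3.

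Maml3 (ENSMUSG00000061143, chromosome 3, 51491533 to 51908813, minus strand) stood at 2.83, 2.35 and 1.86 scaled TPM in WT and at 5.2, 4.76 and 4.004 in cKO. The groups did not overlap, and the values rest on 302 to 464 reads in cKO and 114 to 191 in WT. The log2 difference was 0.76 (SE 0.17, adjusted p = 0.0287), or 1.69-fold on the scale with the pseudocount. The call was lost without WT ex vivo 2 or 3 or any of the 3 cKO ex vivo libraries, with an adjusted p of 0.0966 without WT ex vivo 3 and up to 0.118 without cKO ex vivo 1. With a filter at 1 TPM in place of 5 TPM, which tested 33873 genes, neither was called, at an adjusted p of 0.755 for Rbpj and 0.331 for Maml3, although the log2 differences were 0.48 and 0.77. That filter also gave other scaling factors, and the SE rose to 0.23 for Rbpj and 0.22 for Maml3. On the TPM as deposited neither was called either, at 0.0937 and 0.0742, and Maml3 was not called with quantile normalization (0.167). Voom, limma's method for read counts, called both on reads recovered from the deposited values, at an adjusted p of 0.00382 for Rbpj and 0.000278 for Maml3. A miRNA and a pseudogene are annotated on the same strand within Maml3, and how reads were split between them was not tested.

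The other members ex vivo had log2 differences of 0.24 for Notch1 (95% interval -0.03 to 0.50), 0.21 for Notch2 (-0.12 to 0.53), 0.18 for Maml1 (-0.13 to 0.48), 0.24 for Maml2 (0.08 to 0.41) and 0.06 for Dtx1 (-0.20 to 0.32), with adjusted p-values in limma of 0.103 or above. Without WT ex vivo 3 these p-values were 0.705 for Notch1, 0.795 for Notch2, 0.826 for Maml1, 0.299 for Maml2 and 0.969 for Dtx1. Maml2 was nonetheless a member whose groups did not overlap, at 15.3 to 17.3 scaled TPM in WT and 19.5 to 19.8 in cKO, and so was Notch1, at 35.9 to 45.9 against 48.4 to 51.2. Counted over all 9 members, 4 were higher in every cKO library than in every WT library in scaled TPM and 5 in the TPM as deposited, where Hes1 joined, compared with 11.6% and 21.4% of all genes tested. Hes1 was under 5 TPM and so is not among the genes of those shares. An exact permutation test of 3 libraries against 3 cannot go below p = 0.1.

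After 4 h of stimulation, Notch2, Rbpj and Maml3 were all higher in cKO than in WT Treg. These 3 of 7 members were called higher and none lower, where 6.92% of all genes tested were called and 3.3% were called higher. The median log2 difference of the members was 0.39, against -0.03 for all genes tested, and Maml1 was the member with an estimate below 0.

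Notch2 (ENSMUSG00000027878, chromosome 3, 97817461 to 97954290, plus strand), a receptor whose signalling is also needed by marginal zone B cells, had a higher level in stimulated cKO. It was at 39.7, 44.6 and 40.5 scaled TPM in the stimulated WT libraries and at 91.2, 82.2 and 63.6 in the stimulated cKO libraries. All 3 cKO libraries lay above WT, and cKO 3, the library with the largest Gm10800 share, was the lowest of them. The log2 difference was 0.89 (SE 0.15, 95% interval 0.57 to 1.22, adjusted p = 0.00498), or 1.86-fold, and each of the 12 fits with a library removed kept the call, at an adjusted p of up to 0.0239.

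Rbpj stood at 12.7, 15.7 and 11.9 scaled TPM in stimulated WT and at 25.3, 25.3 and 20.4 in stimulated cKO. Again no library of the groups overlapped. Its log2 difference was 0.78 (SE 0.12, adjusted p = 0.00343), or 1.71-fold, and leaving out any library kept the call, at up to 0.0192.

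Maml3 was at 3.39, 4.58 and 4.71 scaled TPM in stimulated WT and 7.33, 8.22 and 6.93 in stimulated cKO. The lowest cKO library was above the highest WT library. The log2 difference was 0.71 (SE 0.17, adjusted p = 0.0337), or 1.63-fold, and the call was lost when any 1 of the 6 stimulated libraries or cKO ex vivo 1 was left out, with the highest adjusted p of 0.102 without WT stimulated 1. With quantile normalization it was not called either (0.0904), while voom called it (adjusted p = 0.000316).

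Neither Notch1 nor Dtx1 passed the test after stimulation. Notch1 was at 29.6, 27.8 and 31.4 scaled TPM in WT and 42.6, 41.5 and 32.7 in cKO, a log2 difference of 0.38 (95% interval 0.11 to 0.64, adjusted p = 0.0888 in limma). It was called without cKO stimulated 3 (0.0212) and without WT ex vivo 3 (0.0431). Dtx1 was at 5.71, 4.81 and 6.83 in WT and 7.65, 7.68 and 8.19 in cKO, a difference of 0.39 (0.13 to 0.65, adjusted p = 0.0707), and was called without WT stimulated 3 (0.0444). Voom called both on the recovered reads (0.0182 for Notch1 and 0.0411 for Dtx1). Maml2 had a difference of 0.23 (0.06 to 0.40) and Maml1 of -0.14 (-0.45 to 0.16).

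**Figure D2:**
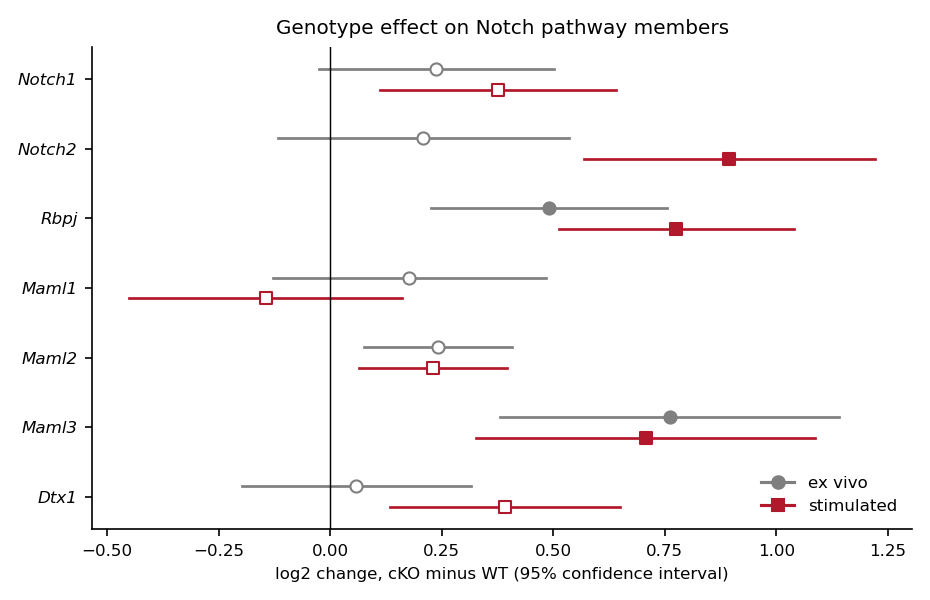
Log2 change, cKO minus WT, of the 7 members tested (horizontal axis) with its 95% confidence interval, ex vivo (grey circles) and after stimulation (red squares); filled symbols were called at an adjusted p under 0.05. Maml3 and Rbpj are filled in both conditions, and Notch2 is filled after stimulation alone.

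These differences after stimulation depended on how libraries were scaled. In scaled TPM 8 of the 9 members were higher in every stimulated cKO library than in every stimulated WT library, against 12.8% of all genes tested, but in the TPM as deposited Rbpj was the single member of which this held, against 3.68%. The 8 include Notch3 and Hes1, which were under 5 TPM and so are not among the genes of those shares. The deposited TPM of Notch2 were 44.5, 41.6 and 49.03 in WT and 96.2, 73.3 and 46.5 in cKO. The median of all genes tested moved by -0.26 (log2) between the scalings, and with the TPM as deposited or a filter at 1 TPM none of the 3 was called, at adjusted p-values of 0.146 to 0.391.

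Ratios within a library do not depend on its scaling. Notch2 made up 54.5%, 59.04% and 54.01% of the summed TPM of Notch1, Notch2 and Notch3 in the stimulated WT libraries and 66.2%, 64.4% and 62.3% in the stimulated cKO libraries, means of 55.8 ± 2.79% and 64.3 ± 1.96% (SD, n = 3). The groups did not overlap, whereas ex vivo they did, at 49.5 ± 3.77% in WT and 49.02 ± 2.42% in cKO. Maml3 made up 4.83 ± 0.523% of the summed TPM of the 3 Mastermind-like genes in WT ex vivo and 10.6 ± 1.14% after stimulation, and in cKO 8.09 ± 1.01% and 17.8 ± 0.777%. The cKO libraries lay above the WT libraries in both conditions, and the stimulated libraries lay above the ex vivo libraries of their genotype. Within the Mastermind-like genes, Maml1 kept the largest share in every library, 52.7% to 65.7%.

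**Figure D3:**
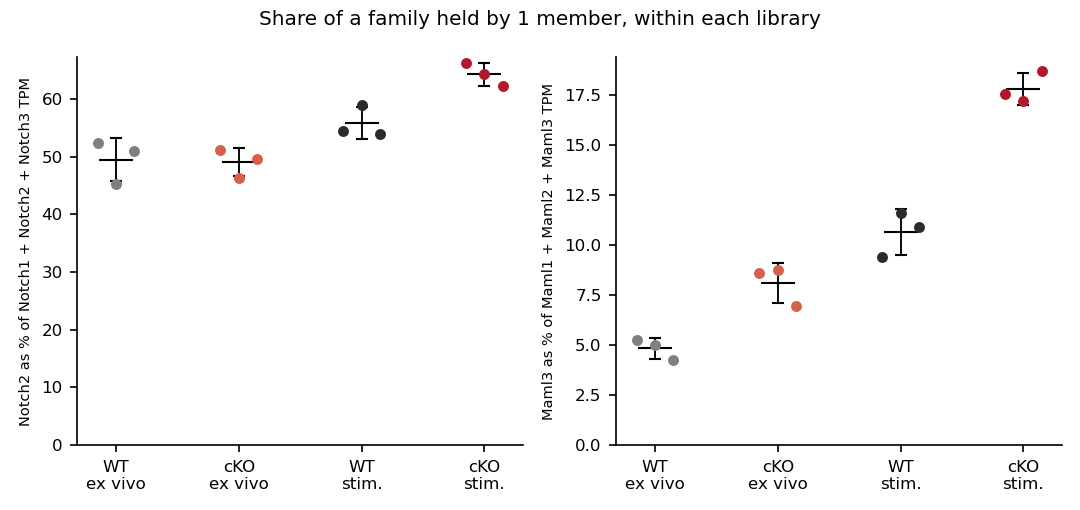
Share within each library of Notch2 among 3 Notch receptors (left) and of Maml3 among 3 Mastermind-like genes (right), as a percentage of summed TPM; points are libraries, and bars are the mean and SD of 3. The Maml3 share is 4.83% in WT ex vivo and 17.8% in cKO stimulated, with no overlap between genotypes in either condition.

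Markers of other cells were low in all groups. The 6 B cell markers, none of them at 0 in any library, summed to 11.6 to 19.5 scaled TPM ex vivo and 14.9 to 15.7 after stimulation in WT, and to 18.6 to 23.3 and 19.8 to 31.1 in cKO, so that the stimulated groups did not overlap. Cd79b, a chain of the B cell receptor, was the B cell marker that reached the test level and was higher in stimulated cKO (log2 0.96, adjusted p = 0.0283 in limma), at 3.67 scaled TPM in WT and 7.81 in cKO. Cr2, which marks marginal zone and follicular B cells, was at 2.21 and 2.72. The 4 NK cell markers also did not overlap after stimulation, at 8.33 to 9.89 in WT and 11.2 to 15.03 in cKO, nor did the 4 erythroid or platelet markers, at 7.49 to 9.65 and 10.4 to 13.4. The olfactory and vomeronasal receptor genes had a median of 0.883 scaled TPM in stimulated WT and 1.19 in stimulated cKO. The floor under such low markers thus differed too, and its part in the marker differences was not tested. The part of these markers in the Notch2, Rbpj and Maml3 differences was not tested either. The 6 myeloid markers summed to 11.0 to 15.6 scaled TPM in stimulated WT and 13.3 to 21.0 in stimulated cKO, and the 5 dendritic cell markers to 13.2 to 13.7 and 13.04 to 19.7, with overlap. The 2 CD8 T cell markers also overlapped, at 11.6 to 14.3 in stimulated WT and 9.91 to 14.5 in stimulated cKO. Of these Cd8b1 reached the test level, at 10.5 and 9.16 scaled TPM, and was not called (limma adjusted p = 0.421).

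No group was cultured without the antibodies, so on stimulation their effect and that of 4 h of culture cannot be told apart. Stimulation was followed by a large loss of Dtx1 (ENSMUSG00000029603, chromosome 5, 121130211 to 121161936, minus strand) in both genotypes. In WT it went from 92.4, 79.7 and 73.1 scaled TPM ex vivo to 5.71, 4.81 and 6.83 after 4 h, and in cKO from 82.7, 81.01 and 90.8 to 7.65, 7.68 and 8.19. No stimulated library came near an ex vivo library. Dtx1 fell by 3.61 on the log2 scale in WT (SE 0.12, limma adjusted p = 8.08e-08) and fell by 3.28 in cKO (SE 0.12, adjusted p = 1.01e-07), and it passed under all 21 alternative fits in both. DTX1 protein is also known as a factor of T cell anergy that is induced by NFAT.

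Of the other members in WT, Maml2 (ENSMUSG00000031925, chromosome 9, 13424434 to 13513832, plus strand) and Notch1 (ENSMUSG00000026923, chromosome 2, 26313423 to 26372183, minus strand) fell and Maml3 rose, so that 1 of 7 was called higher and 3 lower, where 32% of all genes tested were called, 12.7% higher and 19.3% lower. Of the 9 members, the WT groups did not overlap for 6 in the TPM as deposited and for 5 in scaled TPM, compared with 33.1% and 47.5% of all genes tested. Both counts include Notch3 and the first also Hes1, which are not among the genes of those shares. Maml2 went from 16.9, 17.3 and 15.3 to 9.0, 9.06 and 10.1 scaled TPM, and fell by 0.75 (SE 0.08, adjusted p = 4e-05). Notch1 fell by 0.50 (SE 0.12, adjusted p = 0.00883), from 45.7, 45.9 and 35.9 to 29.6, 27.8 and 31.4. Maml3 rose by 0.64 (SE 0.17, adjusted p = 0.0153), and lost its call without WT stimulated 2 (0.0578) or 3 (0.0622). The calls of Notch1 and Maml3 in WT were lost at the 1 TPM filter and with quantile normalization, and that of Notch1 also in the TPM as deposited. Notch2 (-0.06, 95% interval -0.39 to 0.26), Rbpj (0.20, -0.07 to 0.46) and Maml1 (-0.17, -0.47 to 0.14) did not pass.

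In cKO all 7 members tested were called after stimulation, 3 higher and 4 lower, where 43.8% of all genes tested were called, 17.3% higher and 26.5% lower. The cKO groups did not overlap for 4 of the 9 members in the TPM as deposited and for 8 in scaled TPM, compared with 51.4% and 53.5% of all genes tested. The 8 include Notch3, which is not among the genes of those shares. Notch2 went from 54.7, 44.5 and 52.3 to 91.2, 82.2 and 63.6 scaled TPM, and rose by 0.62 (SE 0.15, adjusted p = 0.00671). Rbpj rose by 0.48 (SE 0.12, adjusted p = 0.00844) from 18.1, 15.01 and 16.7 to 25.3, 25.3 and 20.4, and Maml3 rose by 0.59 (SE 0.17, adjusted p = 0.0184). Every stimulated library was above every ex vivo library for these 3 genes in scaled TPM. In the TPM as deposited the groups overlapped for all 3, and their calls were lost there and at the 1 TPM filter.

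The 4 members that fell in cKO were Dtx1, Maml2, Maml1 and Notch1. Maml2 fell by 0.76 (SE 0.08, adjusted p = 2.82e-05). Maml1 (ENSMUSG00000050567, chromosome 11, 50069136 to 50105838, minus strand) fell by 0.49 (SE 0.14, adjusted p = 0.0162), from 35.6, 30.1 and 34.03 to 22.96, 28.3 and 19.6 scaled TPM. Notch1 fell by 0.36 (SE 0.12, adjusted p = 0.0312). The calls of Maml1 and Notch1 were lost without cKO ex vivo 1, cKO ex vivo 3 or cKO stimulated 3, at up to 0.0864 and 0.165 without the last. The call of Maml3 was lost without cKO ex vivo 3 (0.0724) or cKO stimulated 2 (0.0678). The call of Notch1 was also lost with median of ratios scaling (0.0554). Quantile normalization ended the calls of all 3, and there the estimate for Notch1 was above 0.

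**Figure D4:**
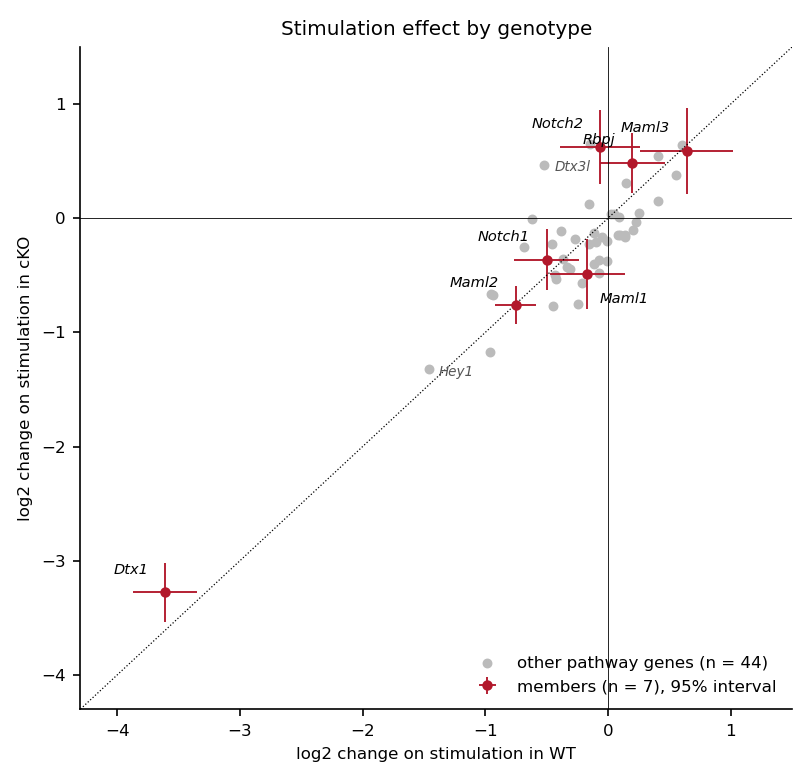
Log2 change on stimulation in WT (horizontal) and in cKO (vertical), for 7 members (red, with 95% intervals) and 44 other genes of the pathway list (grey); the dotted line marks equal change. Dtx1 lies far down near the line at -3.61 and -3.28, and Notch2 lies above it at -0.06 and 0.62.

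The change on stimulation was then compared between genotypes directly. No member was called for the interaction in limma, where 1.1% of all genes tested were. An unadjusted p under 0.05 was found for 1924 of the 13318 genes tested and for 1 of the 7 members. That member was Notch2, with an interaction of 0.69 (SE 0.21, 95% interval 0.22 to 1.15, unadjusted p = 0.00745, adjusted p = 0.153), so a difference between the genotypes in its response did not pass the test. In voom Notch2 was called at 0.75 (adjusted p = 0.0235), and with quantile normalization at 0.96 (adjusted p = 0.01). The intervals of the other members included 0, among them Maml3 at -0.05 (-0.59 to 0.48) and Rbpj at 0.29 (-0.09 to 0.66).

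Notch3 and Hes1 stayed under 5 TPM in every group, and none of their 5 comparisons was called by limma with the filter at 1 TPM. Notch3 (ENSMUSG00000038146, chromosome 17, 32257765 to 32303825, minus strand), a receptor linked to T cell leukaemia, was at 1.86, 2.53 and 1.79 scaled TPM in WT ex vivo and 3.6, 3.11 and 3.09 after stimulation. In cKO it was at 1.84, 3.08 and 2.15 ex vivo and 4.01, 3.88 and 5.87 after stimulation. In scaled TPM the stimulated libraries lay above the ex vivo libraries in both genotypes, but in the TPM as deposited the cKO groups overlapped. The fit with the filter at 1 TPM has other scaling factors, so its log2 changes do not match these scaled TPM. For Notch3 it gave 0.31 (limma unadjusted p = 0.0348, adjusted p = 0.217) in WT and 0.31 (unadjusted p = 0.0325, adjusted p = 0.124) in cKO. Hes1 (ENSMUSG00000022528, chromosome 16, 30064470 to 30067882, plus strand) was at 1.33, 2.84 and 1.69 scaled TPM in WT ex vivo and 2.3, 3.49 and 5.14 in cKO ex vivo, on 28 to 134 reads. The fit with the filter at 1 TPM gave a log2 difference of 0.66 (limma unadjusted p = 0.0195, adjusted p = 0.556). After stimulation Hes1 was at 2.53, 2.79 and 3.86 scaled TPM in WT and 4.7, 4.31 and 4.88 in cKO, and in the TPM as deposited these groups overlapped. The same fit gave a difference of 0.23 (limma adjusted p = 0.703).

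Members could be ordered by group from these values. Rbpj and Maml3 had their lowest mean in WT ex vivo and their highest in cKO stimulated, and in both the WT stimulated and cKO ex vivo libraries in between overlapped, as for Rbpj did both WT groups. Notch2 rose in the order WT stimulated, WT ex vivo and cKO ex vivo, which overlapped as neighbours, and was above them in cKO stimulated. For Notch3 the ex vivo groups were lowest and overlapped, and stimulated cKO lay above stimulated WT. Notch1 and Maml2 had the order WT stimulated, cKO stimulated, WT ex vivo and cKO ex vivo, with overlap only between the middle groups for Notch1 and none for Maml2. Dtx1 kept that order with overlap between the ex vivo groups, and all neighbouring groups overlapped for Maml1 and Hes1.

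Across the 12 libraries the members paired with different genes. In log2(scaled TPM + 1) Notch2 and Rbpj followed each other with a Pearson correlation of 0.93, Rbpj and Maml3 with 0.91, and Maml2 and Dtx1 with 0.96, over points that share 4 groups and a scaling. The genes most like Rbpj were Atp9b (0.96) and Tbx21 (0.95), the latter the factor of T helper 1 cells, and those most like Notch2 were Atp9b (0.94) and Spsb1 (0.94). For Dtx1 they were Nfatc2 (0.99), an NFAT factor of T cell receptor signalling, and Klf4 (0.99). Maml3 was closest to Ctif (0.99) and Itga5 (0.95), Maml2 to Gdap10 (0.99) and Jak3 (0.99), Maml1 to Prr12 (0.98) and Tapt1 (0.98), and Notch1 to 2010111I01Rik (0.97) and Stk39 (0.96). These correlations describe the libraries and carry no test.

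The rest of the pathway was taken from a list of 62 other genes by role, of which 44 reached the test level. None of the 5 ligands (Dll1, Dll3, Dll4, Jag1 and Jag2) did so, nor did Notch4. Ex vivo 2 of the 44 were called higher in cKO and none lower, or 4.55% called beside 5.29% of all genes tested. At an unadjusted p under 0.05 there were 9 of the 44 and 2385 of the 13318, and the median log2 difference of the 44 was 0.04. Voom called 3 higher and 2 lower, and its share over all genes is not given here. Furin, the protease that makes the first cut of the Notch receptor on its way to the surface, was at 18.6 to 25.6 scaled TPM in WT and 32.6 to 40.3 in cKO and rose by 0.69 (SE 0.12, limma adjusted p = 0.00924), a call kept whichever library was left out. Dtx3, a ubiquitin ligase of the deltex family, was at 34.9 to 38.0 and 51.5 to 52.7 and rose by 0.50 (SE 0.11, adjusted p = 0.0278), but lost its call when any 1 of the 6 ex vivo libraries was left out, at up to 0.095 without cKO ex vivo 3. Neither was called at the 1 TPM filter or in the TPM as deposited.

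After stimulation 3 of the 44 were higher in cKO and 1 lower, or 9.09% called beside 6.92% of all genes tested, with a median of -0.026 beside -0.035 over all genes tested. Dtx3l, a ubiquitin ligase of the deltex family that partners with PARP9, was at 22.7 to 31.4 scaled TPM in WT and 44.7 to 53.3 in cKO, a log2 difference of 0.84 (SE 0.12, limma adjusted p = 0.00204). Il2ra, the alpha chain of the IL-2 receptor, differed by 0.80 (SE 0.15, adjusted p = 0.00972), at 112 to 124 and 165 to 244 scaled TPM. Gata3, a factor of T helper 2 cells and of Treg, differed by 0.76 (SE 0.15, adjusted p = 0.0122), and its call was lost without WT stimulated 2 (0.0643) or cKO stimulated 1 (0.0537). Lfng, a Fringe enzyme that adds sugar to Notch and so tunes its choice of ligand, was lower by -0.44 (SE 0.11, adjusted p = 0.0394), a call that 8 of the 12 fits without a library lost, up to 0.166 without cKO stimulated 3. These 4 genes were not called at the 1 TPM filter or in the TPM as deposited. None of the 5 other nuclear activators and 12 corepressors was called by genotype in limma. At an unadjusted p under 0.05 there were 1 activator and 2 corepressors in each condition. Over all 13318 genes tested there were 2385 ex vivo and 3166 after stimulation. Voom called 1 activator, after stimulation.

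**Figure D5:**
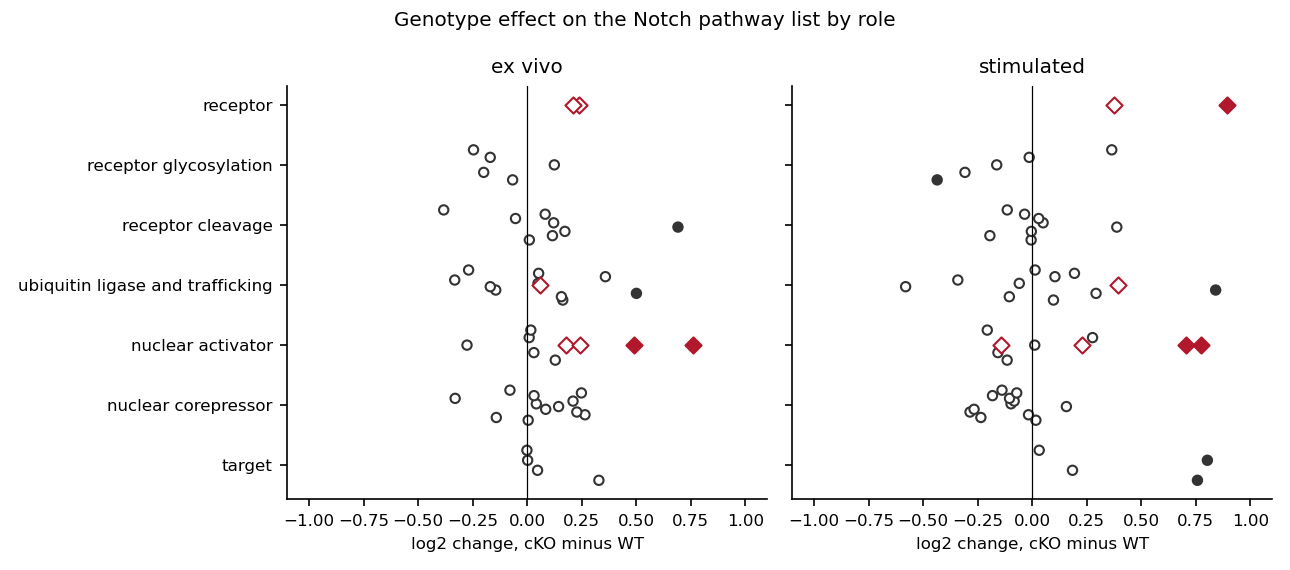
Log2 change, cKO minus WT (horizontal axis), of the tested genes of the pathway list by role (rows), ex vivo (left) and after stimulation (right); red diamonds are members, circles the 44 other genes, and filled symbols were called. The corepressors lie around 0 in both, while Rbpj and Maml3 are filled among the nuclear activators in both.

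On stimulation the list was called about as often as all genes tested. In WT 5 of the 44 other genes were called higher and 11 lower, 36.4% beside 32% of all genes, and in cKO 5 higher and 15 lower, 45.5% beside 43.8%. The list had medians of -0.11 and -0.17 beside 0.00 and -0.01 over all genes tested. Hey1, a repressor of the Hey family and a Notch target, went from 11.5 to 12.7 scaled TPM in WT ex vivo to 3.44 to 4.38 after stimulation. It fell by 1.46 (SE 0.18, limma adjusted p = 0.000142) in WT, and in cKO it fell by 1.33 (SE 0.18, adjusted p = 0.000229). Dtx3 fell by 0.96 in WT and by 1.17 in cKO, and the acetyltransferases Kat2a and Kat2b, which work with the Notch complex, fell by 0.95 and 0.94 in WT and by 0.67 each in cKO.

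The genes that rose were Myc (0.61 in WT, 0.64 in cKO), a Notch target that also answers T cell receptor signals, and Mib2 (0.41 and 0.55), a ubiquitin ligase that acts on Notch ligands, in both genotypes. Mib1 (0.41), Aph1a (0.55), a subunit of gamma-secretase, and Dtx2 (0.23) rose in WT, and Il2ra (0.65), Dtx3l (0.47) and Poglut1 (0.31) in cKO, where Dtx2 and Poglut1 are named after their values were seen. The WT calls of Aph1a and Myc were lost without WT stimulated 2 (0.0514 and 0.0522), and that of Mib1 without WT ex vivo 3, WT stimulated 1 or WT stimulated 2 (0.123). At the 1 TPM filter the rises of Myc, Mib2, Mib1, Aph1a, Il2ra and Dtx3l were not called. Among the 12 tested corepressors, 2 were lower in WT (Tle3 and Tle4, the latter named after its values were seen) and 7 in cKO, beside 19.3% and 26.5% of all genes tested that were called lower. In cKO Tle3 fell by 0.77 (adjusted p = 0.000142) and Hdac2 by 0.75 (adjusted p = 0.000367). For the interaction limma and voom called none of the 12 corepressors. In limma 4 of them had an unadjusted p under 0.05, beside 1924 of the 13318 genes tested.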

How the data were processed

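Treg RNA of 12 libraries (4 groups of 3, from individual animals) was analysed. Whether ex vivo and stimulated libraries came from the same animals is not given in the sources used here. According to the methods and processing notes, the authors depleted ribosomal RNA, made strand-specific libraries, aligned paired 51 bp reads to mm9 with STAR 2.6.0c and counted exons of Ensembl genes by strand with HTSeq 0.6.1. The signal deposited by the authors is TPM per gene and library, and the deposited log2 column is that TPM plus the value of 1 read. Dividing the TPM by that value gave whole reads (tolerance 0.05) for 99.9988% of values. A table of the authors' own fold changes and p-values was not used.

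TPM were divided by trimmed mean of M-values factors (30% of M and 5% of A trimmed), 1 was added and log2 taken, and limma 3.58.1 (R 4.3.3; eBayes with a trend) was fitted to all 4 groups for genes whose mean reached 5 TPM in some group. P-values were two-sided and Benjamini-Hochberg adjusted within each of 5 comparisons, with 0.05 as the threshold. The pseudocount understates changes of low genes. The test was checked on simulated data. Apart from genes changed on purpose, the simulated libraries shared the WT ex vivo means and a fixed spread. They held no shift between groups like that of Gm10800, so the check does not cover the scaling. Exact permutation tests of 3 against 3 cannot go below 0.1. Members, gene lists and tests were chosen with earlier results of these data known. Named were all members, Ikzf1, the called list genes of largest change (up to 4 per direction and comparison) and the 2 genes most correlated with each member tested. Alternatives were another filter, scaling or pseudocount, voom on the recovered reads, a replicate block and leaving out each library. No 2 libraries of a group agreed within counting noise (chi-square per degree of freedom 4.51 to 48.2). Positions are from GENCODE vM1 on NCBIM37, and counting error is not the whole error, since fragments carried no molecular identifiers.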

Additional observations from a re-analysis of the deposited data

Results flagged for a closer look

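Dtx3l, a deltex family ubiquitin ligase on the pathway list, moved in opposite directions on stimulation in the genotypes in scaled TPM of the genes tested at 5 TPM. It went from 39.9 ± 3.17 to 27.7 ± 4.47 scaled TPM (SD, n = 3) in WT, a fall of 0.52 on the log2 scale, and from 35.9 ± 0.872 to 50.2 ± 4.75 in cKO, a rise of 0.47. The interaction was 0.99 (SE 0.17, limma adjusted p = 0.0205), the single call among the 44 other genes of the list, where 1.1% of all genes tested were called. The call was lost without WT ex vivo 2 or 3, cKO ex vivo 1 or 3 or cKO stimulated 1, with the highest adjusted p, 0.0694, without cKO ex vivo 3. It was also lost, at 0.0624, with a replicate block. With the filter at 1 TPM, no filter or the TPM as deposited it was not called, and over these 3 settings the interaction was 0.70, 0.68 and 0.47. With the filter at 1 TPM or none, the cKO change itself was -0.0701 and -0.059, the same direction as in WT.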

How the results depend on the processing

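Pseudocounts of 0.5 and 2 moved no count or call, and Dtx1 and Maml2 on stimulation and Ikzf1 by genotype kept their direction and call under all alternatives, except Maml2 in WT with the TPM as deposited (adjusted p = 0.0601). A filter at 1 TPM or none left no member and no list gene (0) called in either genotype comparison and no list gene for the interaction, 2 members and 5 list genes in WT stimulation and 4 members in cKO stimulation. The TPM as deposited gave 0 and 0 genotype calls of members and of list genes, 0 interaction calls of list genes, 2 members and 8 list genes in WT stimulation and 4 members in cKO stimulation. These settings also moved the median of all genes, the TPM as deposited by 0.22 ex vivo, -0.26 after stimulation, 0.18 in WT, -0.30 in cKO and -0.48 for the interaction, and the 1 TPM filter by -0.28, -0.24, -0.49 and -0.26 for all but the ex vivo comparison. Quantile normalization gave 1 member ex vivo, 11 list genes after stimulation, 2 members in WT and 4 in cKO stimulation, and 1 member and 5 list genes for the interaction. Voom gave 5 list genes ex vivo, 5 members and 9 list genes after stimulation, and 1 member (Notch2) and 2 list genes for the interaction. The shares of all genes called that are given above belong to the main limma fit. They are no background for the counts called under the alternatives. In scaled TPM, chosen after seeing the data, 8 members did not overlap between genotypes after stimulation and 8 in cKO stimulation.

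Signs turned only in estimates that were not called, apart from Notch1, Rbpj and Dtx3l in cKO stimulation. In the order 1 TPM filter, no filter and TPM as deposited, Maml2 by genotype after stimulation was -0.048, -0.045 and -0.035, and the Notch1 interaction -0.15, -0.16 and -0.38. At the 1 TPM filter and with none, Rbpj on stimulation was -0.042 and -0.016 in WT and -0.039 and -0.029 in cKO, and Dtx3l in cKO -0.0701 and -0.059. With the TPM as deposited and quantile normalization, Notch2 in WT was 0.13 and 0.21 and Maml1 in WT 0.025 and 0.023. Notch1 in cKO was 0.075 under quantile normalization. Interactions turned for Rbpj (-0.013 with no filter, -0.21 as deposited), Maml2 (0.021 with median of ratios scaling, 0.057 in voom), Maml3 (0.016 under quantile normalization), Dtx1 (-0.16 as deposited) and Notch3 (-0.0073 with no filter). The cause was not tested.

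Leaving out a library gave 0 to 2 members and 1 to 2 list genes ex vivo, 2 to 4 and 2 to 5 after stimulation, 3 to 4 and 11 to 17 in WT stimulation, 4 to 7 and 15 to 22 in cKO stimulation, and 0 and 0 to 2 for the interaction. It turned Dtx1 ex vivo (-0.020 to 0.15), Maml1 after stimulation (-0.30 to 0.0062), Notch2 in WT (-0.13 to 0.068) and the interactions of Maml2 (-0.049 to 0.075) and Maml3 (-0.17 to 0.091).

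Replicate numbers showed little pairing of the libraries. Of 18 same-numbered pairs 2 had a correlation of deviations over 0.1 (range -0.21 to 0.26), and 0 libraries correlated best with their own number in every other group. With 3 libraries per group these correlations cannot tell whether libraries came from the same animals. With the replicate block 1 member was called ex vivo, and Maml3 had an adjusted p of 0.0572 ex vivo and 0.0632 after stimulation, Lfng 0.0841, and no list gene was called for the interaction (0). The low members rest on few reads, from 28 in a library for Hes1, and no detection limit was computed for them.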

Other observations

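Several genes that the pathway controls in other settings were low in all groups. Hes5, a repressor of the Hes family, was at 2.59 ± 0.584 scaled TPM in WT ex vivo and 4.09 ± 0.75 in cKO stimulated (SD, n = 3), and Hey2 and Heyl, of the related Hey family, at 1.13 ± 0.532 and 2.36 ± 0.33 and at 1.22 ± 0.285 and 2.69 ± 0.611. Ptcra, the invariant chain of the pre-T cell receptor, was at 1.63 ± 0.211 and 3.35 ± 0.747. The 1555 olfactory and vomeronasal receptor genes had medians of 0.742 and 1.19 and 90th percentiles of 1.44 and 2.06 in the same groups. Among the ligands, Jag2 was at 3.54 ± 0.798 and 5.6 ± 1.27, and the receptor Notch4 was at 1.98 ± 0.263 and 4.76 ± 1.12.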
